A study of Mus musculus with 2 samples.

Results

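The 9 genes of the response to broken DNA followed here, Atm, Atr, Brca1, Brca2, Mdc1, Trp53bp1, Rad50, Nbn and H2afx, were measured in the cell types of the newborn mouse ovary. They were chosen by name as DNA double-strand break repair genes, with earlier results of these data known. All 9 were among the 21018 genes present in both deposited tables. The ovaries came from C57BL pups at postnatal day 3, when oocytes have just become enclosed in primordial follicles. Single cells were sequenced with the 10x Genomics 3′ assay in 2 libraries, 1 per group. Melatonin (MLT) was given to the mothers of both groups between E16.5 of gestation and the day the pups were taken. Mothers of the DEHP_MLT group also received DEHP, a phthalate plasticizer, by gavage earlier each day, and mothers of the MLT group received DMSO in its place. The labels do not say how many pups gave each library, and no group without melatonin was analysed here.

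A double-strand break is bound first by a complex of MRE11, RAD50 and NBN, which recruits and activates the kinase ATM, while the kinase ATR answers to single-stranded DNA at resected ends and stalled forks. These kinases phosphorylate the histone variant H2AX around the break, MDC1 binds the phosphorylated histone, and the choice of repair then lies between the product of Trp53bp1, which protects ends for end joining, and the product of Brca1, which favours resection. The product of Brca2 acts on the resected strand in homologous recombination. Oocytes make many programmed breaks in meiotic prophase and repair most of them before they arrest, and the same machinery serves primordial oocytes when their DNA is damaged.

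Sample titles and table names conflict: each of the 2 tables bears the name of the opposite group. The titles were followed, and every direction given between libraries would turn if the names of the tables were right. Depth was 80657690 UMIs (unique molecular identifiers, which count captured RNA molecules) over 5277 barcodes for the library labelled MLT, against 117355739 UMIs over 4819 barcodes for the one labelled DEHP_MLT. Their lowest barcode totals were 2031 and 6923 UMIs, and they shared 4 cell barcodes. A barcode entered a cell class when the summed level of that class's markers reached 20% of its 99th percentile, at least 2 of the markers were seen and no other class was past its own limit. The markers were Dazl, Sycp3 and Figla for germ cells, Fst, Hsd3b1, Inha and Aard for granulosa cells, Col1a1, Col1a2, Col3a1 and Dcn for stroma, and Cdh5 and Cldn5 for endothelium. This gave 281 and 758 germ, 709 and 368 granulosa, 2840 and 2213 stroma and 146 and 99 endothelial cells in the libraries labelled MLT and DEHP_MLT. Markers kept out of the gate followed the class names. Germ markers (Ddx4, Zp3, Ooep, Sohlh1 and Gdf9) stood in the somatic classes at 4.33% to 9.44% of their germ cell level, while granulosa markers (Foxl2, Amhr2, Wnt4 and Kitl) reached 47.0% and 58.8% of their own level in stroma.

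Levels below are UMIs of a gene per 10000 UMIs of the class, with exact Poisson 95% intervals that cover counting error only. They are a share of a cell's captured RNA and not an amount per cell, since depth differed between classes and libraries. The median germ cell held 8112 UMIs when labelled MLT and 55124.5 when labelled DEHP_MLT, and the median stroma cell 10551.5 and 11524. Each gene is compared with itself across classes, not with other genes. Between classes, UMIs summed per library and class were tested with edgeR's quasi-likelihood method with the library as a term, germ cells against the mean of the 3 somatic classes, and p-values were adjusted by Benjamini-Hochberg over 16203 genes. With 2 libraries, which also differ in treatment, these p-values measure only the spread of the class differences between those libraries. The quasi-likelihood method shares information on that spread among genes, so a gene's p-value does not rest on its own values alone. Standard errors (SE) were derived as the absolute log2 difference over the square root of the test's F statistic.

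Germ cells carried 7 of the 9 genes at a higher level than the somatic classes, by a log2 difference of 0.41 to 2.32, and the other two, Trp53bp1 and H2afx, at a lower one. Of all genes tested 39.7% were called higher in germ cells and 39.1% lower. The median difference was 1.16 over the 9 members and -0.05 over all genes. Against single somatic classes the counts were 7 higher and 1 lower for granulosa cells (38.4% and 39.8% of all genes), 7 and 2 for stroma (40.9% and 38.5%) and 7 and 1 for endothelium (36.9% and 31.6%). Between somatic classes, granulosa cells were called higher than stroma for 0 members and lower for 4 (26.8% and 26.9% of all genes), and against endothelium 2 were higher and 2 lower (24.5% and 23.7%). Stroma was above endothelium for 7 members and below it for 0 (22.7% and 20.5%).

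The break-sensing complex and its kinases came first. Rad50, the long coiled-coil ATPase that bridges DNA ends, stood in germ cells at 4.99 per 10000 UMIs (4.85 to 5.13) when labelled MLT and at 3.33 (3.27 to 3.38) when labelled DEHP_MLT. In granulosa cells it stood at 1.20 and 0.767, in stroma at 1.11 and 0.711, and in endothelium at 0.757 and 0.558, in the same order of libraries. Both germ cell values lay far above every somatic value. The log2 difference of germ minus somatic was 2.32 ± 0.07 (SE, adjusted p = 1.52e-12), and Rad50 in granulosa and stroma cells could not be told apart (log2 difference -0.01 ± 0.09, adjusted p = 0.966).

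Nbn, the subunit of the same complex that binds ATM, differed much less. Its levels were 0.344 and 0.295 in germ cells, 0.236 and 0.171 in granulosa cells, 0.249 and 0.190 in stroma and 0.250 and 0.146 in endothelium. Germ cells were highest in each library, by a log2 difference of 0.65 ± 0.10 (adjusted p = 4.31e-05), and no pair of somatic classes passed the test. With equal weight per cell in place of summed UMIs the germ level labelled MLT was 0.236, below the endothelial 0.270 and the stroma 0.244.

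Atm, the kinase at the head of the break response, had the smallest germ minus somatic difference of the members that were higher in germ cells. It stood at 0.342 and 0.212 in germ cells, 0.292 and 0.194 in granulosa cells, 0.299 and 0.167 in stroma, and 0.195 and 0.131 in endothelium. The intervals of germ and granulosa cells overlapped in both libraries, and the log2 difference of germ minus somatic was 0.41 ± 0.10 (adjusted p = 0.00126). Atr, the related kinase that responds to single-stranded DNA, separated the classes more clearly. It stood at 0.758 and 0.556 in germ cells against 0.310 and 0.284 in granulosa cells, 0.262 and 0.227 in stroma and 0.210 and 0.195 in endothelium, a log2 difference of 1.41 ± 0.09 (adjusted p = 2.32e-09). No pair of somatic classes differed in Atr beyond the test's threshold.

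The chromatin marks and their readers went in different directions. Mdc1, the scaffold that reads phosphorylated H2AX, stood at 0.843 (0.786 to 0.903) and 0.440 (0.422 to 0.460) in germ cells. It stood at 0.321 and 0.206 in stroma, 0.192 and 0.127 in granulosa cells and 0.155 and 0.0937 in endothelium. The germ minus somatic difference was 1.86 ± 0.09 (adjusted p = 2.37e-10), stroma was above both other somatic classes, and granulosa cells and endothelium did not differ beyond the threshold (0.15 ± 0.18, adjusted p = 0.537).

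Trp53bp1 ran the other way. It was highest in granulosa cells at 0.503 (0.469 to 0.538) and 0.357 (0.323 to 0.393), followed by stroma at 0.400 and 0.284, and it stood at 0.251 and 0.208 in germ cells and 0.306 and 0.150 in endothelium. Granulosa cells and stroma did not differ beyond the threshold (0.22 ± 0.12, adjusted p = 0.157), nor did germ cells and endothelium (-0.07 ± 0.17, adjusted p = 0.729), whose order differed between the libraries. Germ minus somatic gave -0.45 ± 0.11 (adjusted p = 0.0021), with -0.65 in the library labelled MLT alone and -0.24 in the other.

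H2afx, the gene of the histone variant itself, was highest in stroma at 1.76 (1.72 to 1.81) and 2.31 (2.25 to 2.36) and next in endothelium at 1.31 and 1.39. Granulosa cells at 0.775 and 0.894 and germ cells at 0.742 and 0.963 did not differ beyond the threshold (germ minus granulosa 0.14 ± 0.10, adjusted p = 0.227). Germ minus somatic was -0.63 ± 0.09 (adjusted p = 1.36e-05). That direction depended on which somatic cells were used, because with only the somatic cells of low cycling-gene level, a choice made after the data were seen, the difference turned to 0.62 (adjusted p = 0.000102). In those cells H2afx stood at 0.468 and 0.675 in stroma, 0.619 and 0.687 in granulosa cells and 0.360 and 0.615 in endothelium, all below the germ cells of the same library. The other 8 members kept their direction and their call under that setting.

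The homologous recombination genes were both higher in germ cells. Brca2, which acts on resected strands, stood at 1.16 (1.09 to 1.23) and 0.759 (0.734 to 0.785) in germ cells, 0.384 and 0.252 in stroma, 0.267 and 0.202 in granulosa cells and 0.229 and 0.142 in endothelium. No somatic interval came near the germ cell values, and the log2 difference was 1.99 ± 0.08 (adjusted p = 2.81e-11). Brca1, which promotes end resection and recombination, stood at 0.278 and 0.180 in germ cells, 0.193 and 0.122 in stroma, 0.120 and 0.0749 in endothelium and 0.0942 and 0.0511 in granulosa cells. The order of the classes was the same in both libraries, and germ minus somatic gave 1.16 ± 0.11 (adjusted p = 2.29e-07).

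**Figure D1:**
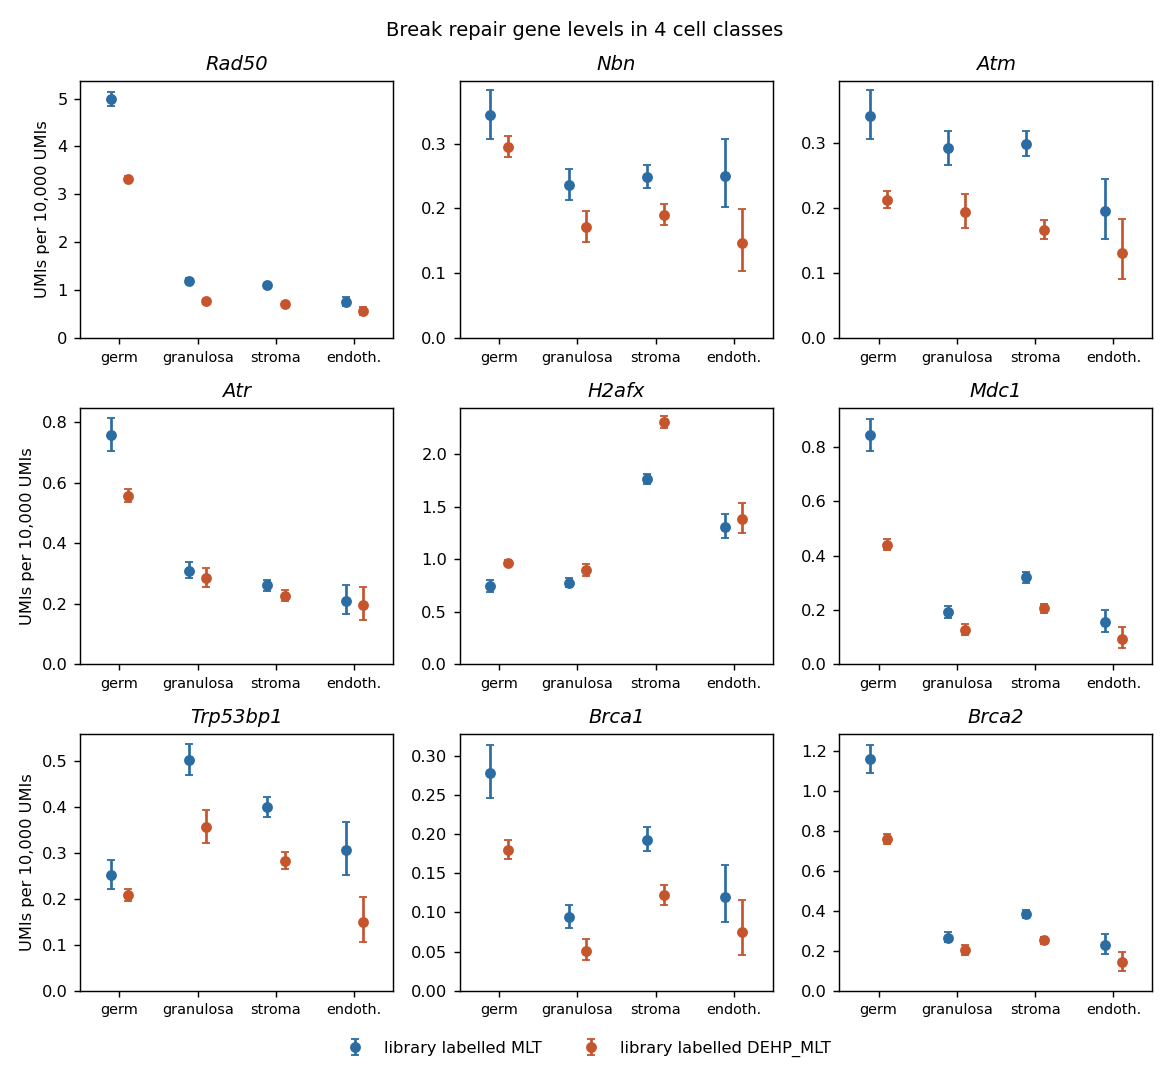
Level of each of the 9 genes (UMIs per 10000 UMIs, linear axes from 0, a separate scale per gene) in 4 marker-gated cell classes, with points for the summed cells of each library and bars for exact Poisson 95% intervals. Germ cells are highest in both libraries for Rad50, Nbn, Atm, Atr, Mdc1, Brca1 and Brca2, granulosa cells for Trp53bp1 and stroma for H2afx, and 8 of the 9 genes are lower in the library labelled DEHP_MLT in every class.

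A wider list of other break repair genes, also chosen with earlier results of these data known, placed this profile in the pathway. Of its genes 42 were found, and 39 were called higher in germ cells and 1 lower, against 39.7% and 39.1% of all genes, with a median log2 difference of 1.09. All 17 genes of homologous recombination were higher, led by Fancd2, a Fanconi anaemia protein that works with the Brca2 product (3.05 ± 0.13, adjusted p = 5.99e-11). Of the 13 sensing and signalling genes 12 were higher, and Rif1, a partner of the Trp53bp1 product and the most abundant of them by UMIs, gave 1.11 ± 0.07 (adjusted p = 3.63e-09). Of the 12 end joining genes 10 were higher, 1 lower and 1 uncalled. The paired Ku subunits Xrcc5 and Xrcc6, which cap broken ends for end joining, gave 2.47 ± 0.09 (adjusted p = 1.57e-11) and 2.33 ± 0.09 (adjusted p = 1.02e-11), and Nhej1, a factor that helps the ligation of ends, 2.25 ± 0.13 (adjusted p = 1.17e-09). Xrcc6 stood at 1.25 and 1.24 in germ cells against 0.220 to 0.290 in every somatic class. Trp53bp1 was thus lower in germ cells beside higher Rif1 and higher Ku genes. The exceptions, named after their values were seen, were Polm, a polymerase of end joining, at -0.68 ± 0.21 (adjusted p = 0.00984), the ligase gene Lig3 at 0.01 ± 0.10 (adjusted p = 0.933) and Uimc1, which brings Brca1's product to ubiquitin at breaks, at 0.10 ± 0.10 (adjusted p = 0.347).

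**Figure D2:**
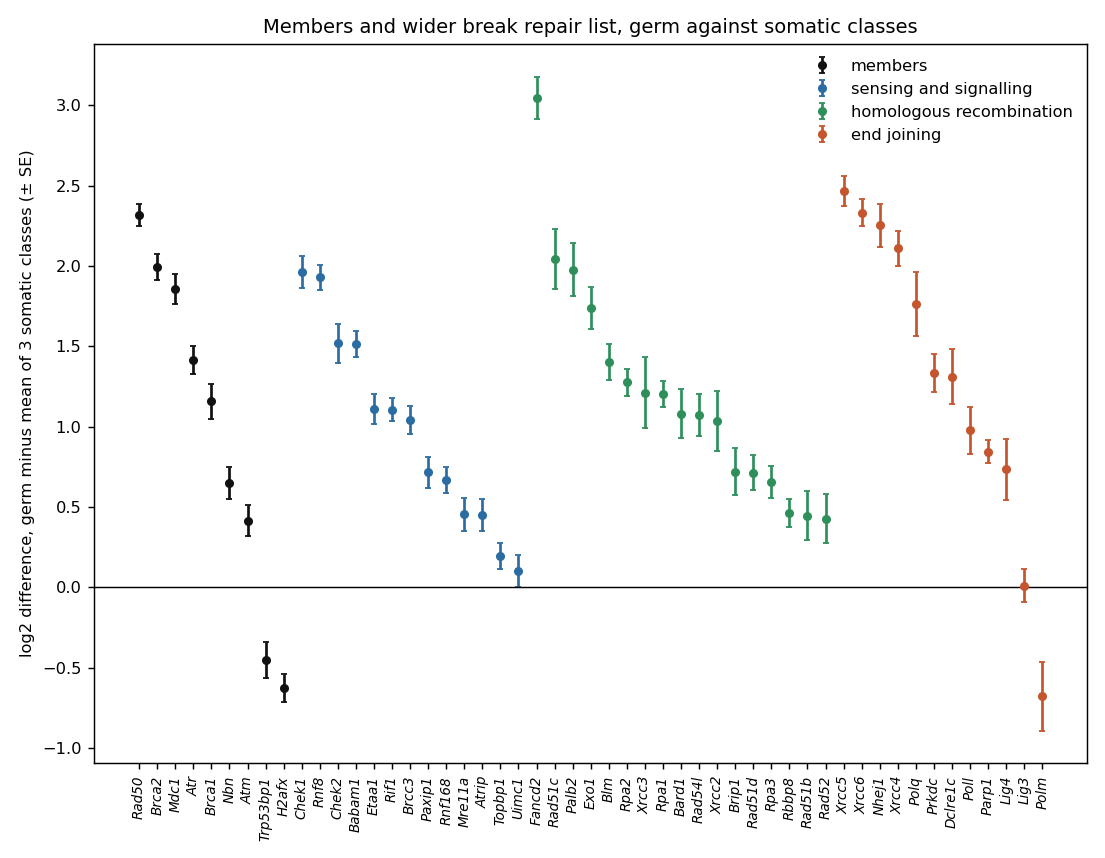
Log2 difference of germ cells minus the mean of granulosa, stroma and endothelial cells (linear axis) for the 9 members and for 42 other genes in 3 groups, ordered by value within each group. Bars are standard errors derived from the log2 difference and the F statistic of the edgeR test. The members run from 2.32 for Rad50 to -0.63 for H2afx, and in the wider list all but Polm lie above 0.

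Over the 8 class levels, 4 classes in 2 libraries, the profile of Rad50 was most like those of Nlrp14, Taf1d and Scaper (Pearson r of 0.996, 0.995 and 0.995 on log2 levels, among 9563 genes). That of Brca2 was most like Cplane1, Eea1 and Ube2q2 (r of 0.997 each), and that of H2afx most like Mxd3, Rhbdf1 and Mllt1 (r of 0.977, 0.975 and 0.972). The points share their libraries, and the values are descriptions of a likeness only.

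Within germ cells the genes were followed by zona gene level, and no other measure of oocyte growth was used. The cells of each library were divided into 3 bins of equal size by their summed level of the zona pellucida genes Zp1, Zp2 and Zp3, which code for the egg coat. The zona level rose by construction, from 1.81 to 11.6 per 10000 UMIs over the bins labelled MLT and 1.34 to 10.7 over those labelled DEHP_MLT. Rad50 stood at 5.93, 5.01 and 4.04 in the low, middle and high bins labelled MLT, and at 3.69, 3.31 and 2.95 in those labelled DEHP_MLT. In summed UMIs the bins thus fell in the same order in both libraries, with intervals apart between neighbours. The log2 ratio of low over high bin was 0.55 (0.45 to 0.66) and 0.32 (0.27 to 0.38). With equal weight per cell the order was lost in the library labelled MLT, where Rad50 stood at 4.49, 5.45 and 4.50, and held in the other at 3.34, 3.20 and 2.96.

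Atr followed the same order, at 0.900, 0.740 and 0.638 in the bins labelled MLT and 0.663, 0.525 and 0.477 in those labelled DEHP_MLT, with ratios of 0.50 (0.23 to 0.76) and 0.47 (0.33 to 0.62). It too lost its order with equal weight per cell when labelled MLT (0.716, 0.708 and 0.755) and kept it when labelled DEHP_MLT (0.602, 0.507 and 0.455). Mdc1 stood at 1.09, 0.782 and 0.666 labelled MLT, a ratio of 0.71 (0.46 to 0.96), but at 0.466, 0.428 and 0.427 labelled DEHP_MLT, a ratio of 0.13 whose interval (-0.03 to 0.28) held 0. Nbn likewise stood at 0.401, 0.365 and 0.266 labelled MLT and at 0.297, 0.296 and 0.292 labelled DEHP_MLT. In summed UMIs Rad50, Atr, Mdc1 and Nbn were the 4 members whose level fell stepwise in both libraries, which 16.3% of all genes did as well. With equal weight per cell Mdc1 (0.907, 0.588 and 0.790) and Nbn (0.269, 0.336 and 0.102) lost the order when labelled MLT too, so none of the 4 kept it in both libraries. Rad50 and Atr were the 2 whose low over high interval lay above 0 in both libraries, a property of 14.5% of genes. Brca2 was nearly level, at 1.25, 1.11 and 1.11 and at 0.790, 0.710 and 0.783, and H2afx at 0.751, 0.752 and 0.722 and at 0.974, 0.962 and 0.953. The low over high intervals of Atm, Brca1, Brca2, Trp53bp1 and H2afx held 0 in both libraries. No test was run, since cells of a library are not replicates. Median depth was similar over the bins labelled MLT (7646 to 8286 UMIs) and lower in the high bin labelled DEHP_MLT (43880 UMIs against 62170 and 63902), and its part in the result was not tested.

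**Figure D3:**
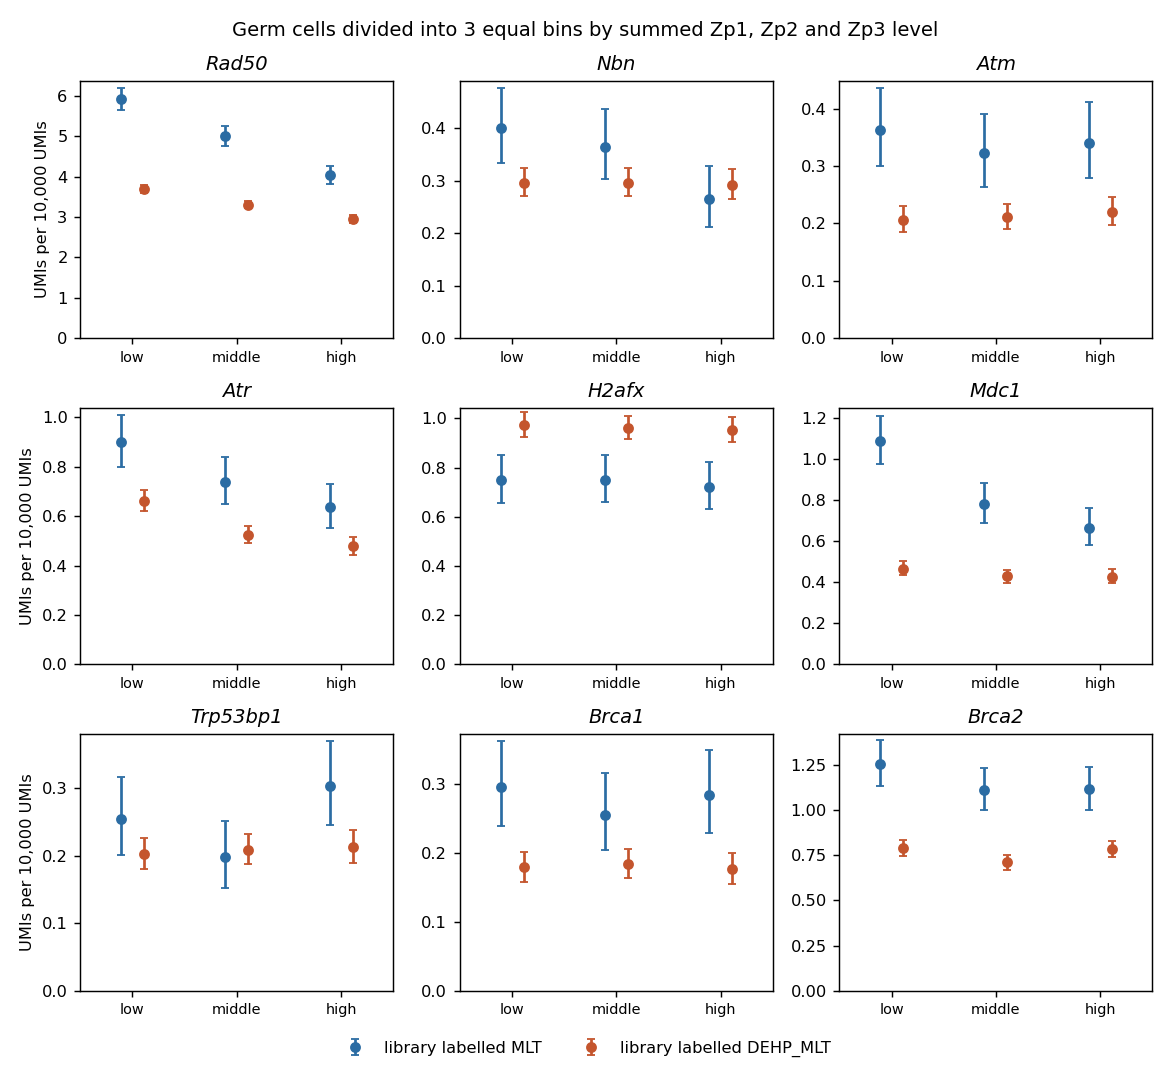
Level of each of the 9 genes (UMIs per 10000 UMIs, linear axes from 0) in germ cells divided within each library into 3 bins of equal size by the summed Zp1, Zp2 and Zp3 level, with exact Poisson 95% intervals. In these summed UMIs Rad50 and Atr step down from the low to the high bin in both libraries, whereas H2afx and Brca1 stay nearly level.

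In somatic cells the genes were compared by cell cycle, since recombination uses the sister chromatid that exists only after replication. Cycling genes were Mki67, Top2a, Cdk1, Ccnb1, Cenpf, Ube2c, Tpx2 and Birc5, none of them a member. Granulosa and stroma cells in which at least 2 of the 8 were seen were compared with those in which none was. The first group held 509 and 281 granulosa and 1708 and 1440 stroma cells in the libraries labelled MLT and DEHP_MLT. Only 65 and 20 granulosa cells and 382 and 201 stroma cells had none, and the contrast weighed granulosa and stroma equally. Cells with 1 were left out, 135 and 67 granulosa and 750 and 572 stroma cells. Of the members 3 were called higher with cycling genes, H2afx, Brca1 and Brca2, and none lower, where 2.46% of all 13956 genes tested were called higher and 0.193% lower. The member median was 0.54, which is the fitted value of Atr, and that of all genes 0.05. In stroma alone the log2 difference of Atr was 0.06 labelled MLT and 0.09 labelled DEHP_MLT, so the median is no typical rise in stroma.

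H2afx in stroma stood at 2.44 (2.37 to 2.51) with cycling genes and 0.459 (0.391 to 0.537) without in the library labelled MLT, and at 2.94 (2.87 to 3.01) and 0.714 (0.604 to 0.837) in the library labelled DEHP_MLT. The fitted log2 difference over both classes was 1.39 ± 0.12 (adjusted p = 8.02e-09). In granulosa cells the contrast was smaller, 0.802 against 0.648 and 0.914 against 0.467, with intervals that overlapped in the library labelled MLT. Granulosa cells with at least 2 cycling genes carried them at only 3.85 and 3.66 per 10000 UMIs, against 18.6 and 14.7 in stroma. Their median depth was 17614 and 31124 UMIs against 10462 and 12526 in granulosa cells with none, and its part in the result was not tested.

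Brca1 in stroma stood at 0.273 (0.251 to 0.297) against 0.0262 (0.0120 to 0.0497) labelled MLT and 0.158 (0.142 to 0.176) against 0.0238 (0.00772 to 0.0555) labelled DEHP_MLT. The intervals with and without cycling genes were apart in both libraries. In granulosa cells without cycling genes it was at 0 UMIs in both libraries, so that no fold is given over both classes (adjusted p = 1.74e-06). Brca2 in stroma stood at 0.455 against 0.224 and 0.282 against 0.157, and its fitted difference was 0.84 ± 0.18 (adjusted p = 0.00418). In granulosa cells Brca2 stood at 0.272 against 0.165 and 0.207 against 0.156, with intervals that overlapped in both libraries. The granulosa cells without cycling genes held 12 and 4 UMIs of it. Mdc1 missed the threshold (0.62 ± 0.18, adjusted p = 0.0766), as did Rad50 (0.34 ± 0.10, adjusted p = 0.0768). Atr gave 0.54 ± 0.18 (adjusted p = 0.129), Atm 0.40 ± 0.18 (adjusted p = 0.376), Nbn 0.15 ± 0.18 (adjusted p = 0.805) and Trp53bp1 0.11 ± 0.14 (adjusted p = 0.824). Atr in stroma stood at 0.261 against 0.250 and 0.226 against 0.209, but in granulosa cells at 0.320 against 0.152 and 0.283 against 0.195. Those granulosa values without cycling genes rest on 11 and 5 UMIs. Nbn was higher with cycling genes in stroma, at 0.265 against 0.172 and 0.197 against 0.157. In granulosa cells it was lower when labelled MLT (0.233 against 0.317) and higher when labelled DEHP_MLT (0.175 against 0.117, from 3 UMIs).

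The number of cycling genes seen moves with depth, so the state was also set by their summed level, a choice made after the data were seen. Stroma cells were then called cycling at 20% or more of its 99th percentile over all barcodes kept (367 and 281 cells) and non-cycling under 5% (2181 and 1729 cells). H2afx stood at 7.54 and 9.09 in cycling stroma against 0.468 and 0.675, Brca1 at 0.612 and 0.356 against 0.0553 and 0.0444, Brca2 at 0.705 and 0.453 against 0.273 and 0.183, and Mdc1 at 0.646 and 0.433 against 0.223 and 0.140. These intervals were all apart. Mdc1 and Rad50 then joined the called members (adjusted p = 0.00112 and 0.000957). This setting called many more of all genes, 1016 higher and 1172 lower, against 344 and 27 by the number of cycling genes seen. The fit also held granulosa cells, of which only 25 and 5 were cycling by this measure. Mdc1 there stood at 0.476 against 0.173 when labelled MLT, but at 0.0960, from 1 UMI, against 0.124 when labelled DEHP_MLT. Rad50 in granulosa cells stood at 1.97 against 1.02 and at 1.92 against 0.670. Trp53bp1 turned to a fitted -0.27 (adjusted p = 0.365) and stood in stroma at 0.333 and 0.250 against 0.418 and 0.291.

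**Figure D4:**
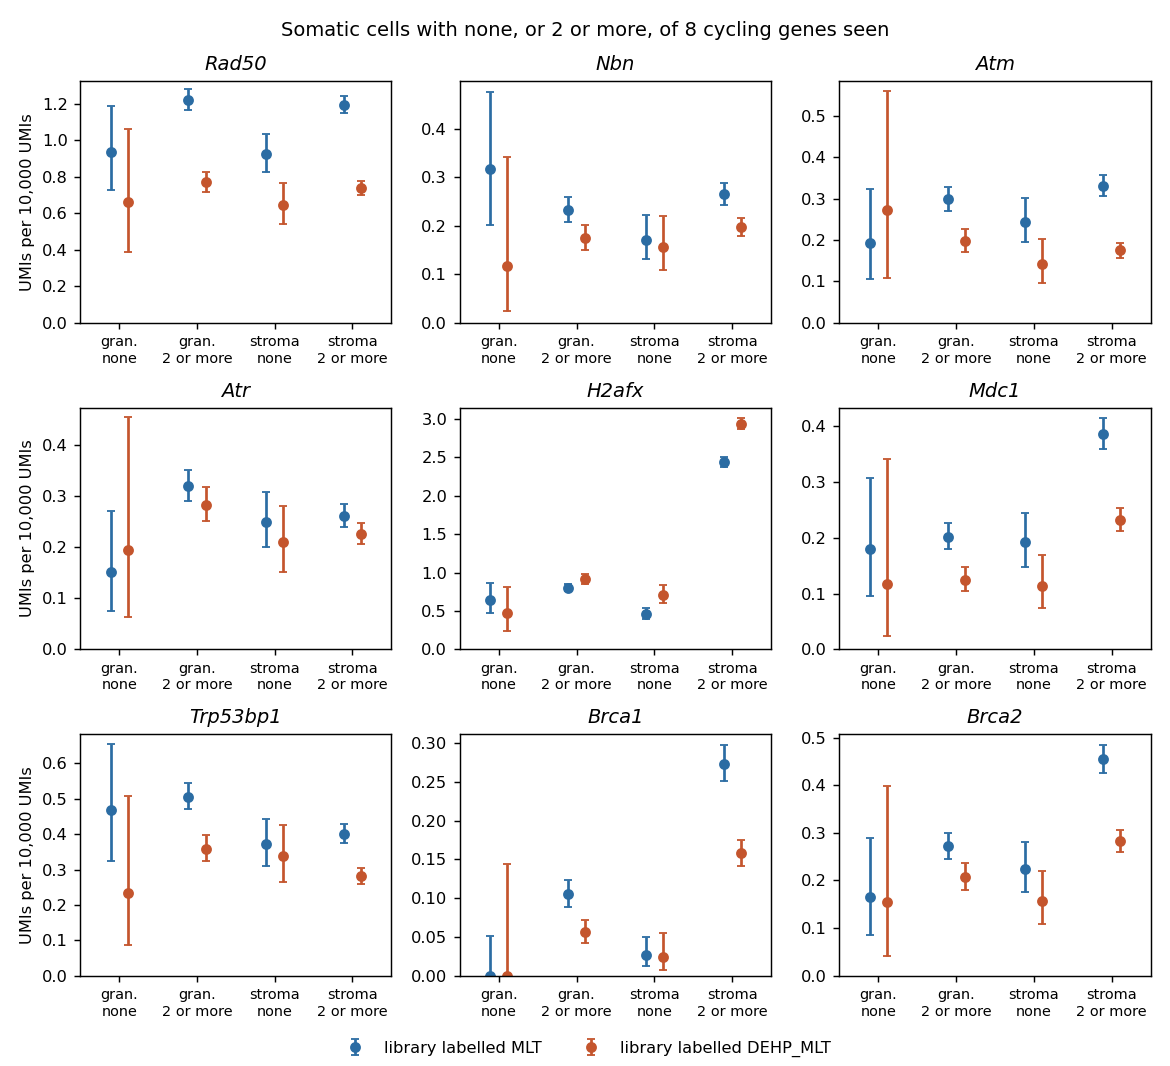
Level of each of the 9 genes (UMIs per 10000 UMIs, linear axes from 0) in granulosa (gran.) and stroma cells in which none, or at least 2, of 8 cycling genes were seen, per library, with exact Poisson 95% intervals. H2afx, Brca1, Brca2 and Mdc1 are higher in stroma with cycling genes in both libraries, while the Trp53bp1 intervals with and without them overlap.

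In the wider list 11 of 42 genes were called higher with cycling genes and none lower, again beside 2.46% and 0.193% of all genes. They were 8 of the 17 recombination genes and 3 of the 13 signalling genes, while 0 of the 12 end joining genes passed. Exo1, the resection nuclease, stood in stroma at 0.233 with cycling genes against 0.0349 without when labelled MLT, and at 0.118 against 0.0285 when labelled DEHP_MLT (adjusted p = 0.00108). Bard1, the partner of the Brca1 product, stood there at 0.152 against 0.0145 and 0.0857 against 0.0190 (adjusted p = 0.00867). Rad54l, a DNA motor protein of recombination, stood at 0.145 against 0.0552 and 0.134 against 0.0381 (adjusted p = 0.00168), and Fancd2 at 0.0807 against 0.0174 and 0.0641 against 0.00476 (adjusted p = 0.0157). Granulosa cells without cycling genes held 0 or 1 UMI of each of these 4 genes per library, so no fold is given for them. The single-strand binding subunit Rpa2 gave 0.90 ± 0.16 (adjusted p = 0.000606) and Rif1 0.44 ± 0.10 (adjusted p = 0.0127). Parp1, the end joining gene with most UMIs, gave 0.06 ± 0.10 (adjusted p = 0.871). The median difference was 0.84 for recombination and -0.04 for end joining genes, and a difference between these sub-lists was not tested.

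The start regions of Brca2 and Brca1, called with cycling genes, and of Mdc1, called under some settings, are shown beside that of Trp53bp1, which was not called, because cell cycle genes often carry E2F sites, CCAAT boxes or the CHR element there. RefSeq start regions, 250 bases before and 50 after the start in the GRCm38.p6 build, were found for 6 of the 9 members (Atm, Atr, Brca1, Brca2, Mdc1 and Trp53bp1). The submitters' processing notes name another build, so these coordinates belong to RefSeq alone. Capitals mark matches on either strand to TTTCCCGC, TTTGGCGC, TTTCGCGC or TTTGCCGC (E2F type), TTTGAA (CHR) or CCAAT, and no match overlaps another in these regions.
Brca2 (chr5:150522371-150522670, plus strand): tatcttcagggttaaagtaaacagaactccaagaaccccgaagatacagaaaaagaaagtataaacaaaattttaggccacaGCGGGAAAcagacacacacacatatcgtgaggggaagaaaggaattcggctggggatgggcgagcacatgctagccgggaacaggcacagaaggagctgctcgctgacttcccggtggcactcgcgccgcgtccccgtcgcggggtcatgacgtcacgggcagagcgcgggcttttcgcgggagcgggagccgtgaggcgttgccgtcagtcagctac
Brca1 (chr11:101551906-101552205, minus strand): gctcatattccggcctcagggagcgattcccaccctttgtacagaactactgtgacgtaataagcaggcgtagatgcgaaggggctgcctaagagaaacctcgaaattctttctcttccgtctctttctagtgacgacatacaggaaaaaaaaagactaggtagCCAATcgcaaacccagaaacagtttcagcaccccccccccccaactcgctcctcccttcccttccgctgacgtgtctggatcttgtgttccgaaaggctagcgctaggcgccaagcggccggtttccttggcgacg
Mdc1 (chr17:35841248-35841547, plus strand): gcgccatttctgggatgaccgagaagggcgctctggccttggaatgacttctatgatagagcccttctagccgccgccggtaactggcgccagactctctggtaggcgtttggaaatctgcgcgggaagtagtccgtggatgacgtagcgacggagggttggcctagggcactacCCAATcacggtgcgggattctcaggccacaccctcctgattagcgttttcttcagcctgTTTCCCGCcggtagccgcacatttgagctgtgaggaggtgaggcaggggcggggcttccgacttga
Trp53bp1 (chr2:121271358-121271657, minus strand): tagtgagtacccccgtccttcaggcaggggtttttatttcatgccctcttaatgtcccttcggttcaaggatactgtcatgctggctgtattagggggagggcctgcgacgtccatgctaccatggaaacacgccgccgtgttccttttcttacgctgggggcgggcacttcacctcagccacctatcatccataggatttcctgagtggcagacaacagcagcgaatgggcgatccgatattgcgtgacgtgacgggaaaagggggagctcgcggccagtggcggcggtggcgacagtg
Brca2 and Mdc1 each held 1 E2F-type match, which 2.26% of 32851 start regions held, Brca1, Mdc1 and Atm each held 1 CCAAT (37.4% of regions), and none of the 6 held TTTGAA (17.9%). Trp53bp1 and Atr held none of these letters. A match is a description of the sequence and no match says nothing of a factor.

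Between the libraries no test was possible, with 1 library per group. The 9 genes summed were lower in the library labelled DEHP_MLT in each class, by a log2 ratio (DEHP_MLT over MLT) of -0.48 (-0.52 to -0.45) in germ cells, -0.34 (-0.40 to -0.28) in granulosa cells, -0.16 (-0.19 to -0.12) in stroma and -0.30 (-0.43 to -0.17) in endothelium. The stroma and endothelial sums lean on H2afx, which went the other way and held the most UMIs of any member there. It held 5472 UMIs labelled MLT and 6958 labelled DEHP_MLT in stroma, and 492 and 370 in endothelium. The germ sum leans on Rad50, with 4805 and 15347 UMIs. These exact binomial intervals also cover counting error only. Depth differed most between the libraries in germ cells, with medians of 8112 UMIs labelled MLT and 55124.5 labelled DEHP_MLT, and its part in these ratios was not tested. All members but H2afx, 8 of 9, were lower in all 4 classes, as were 38.9% of the 10999 genes with enough UMIs. H2afx was higher in all 4, as were 12.4%. No member was at least 1.5-fold higher in any class, where 6.33%, 4.31%, 3.92% and 5.2% of all genes were in germ, granulosa, stroma and endothelial cells. At least 1.5-fold lower were 5 members in germ cells, 4 in granulosa cells, 5 in stroma and 5 in endothelium, where 11.5%, 12.9%, 16.1% and 14.7% of all genes were. The member medians were -0.59, -0.50, -0.60 and -0.68 in that order, and the medians of all genes -0.11, -0.14, -0.17 and -0.12. Genes within the members' range of levels had medians of -0.08, -0.14, -0.14 and -0.13. The 42 wider genes had -0.29, -0.19 and -0.37 in germ, granulosa and stroma cells, and the 38 with enough UMIs in endothelium -0.34.

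Rad50 was lower by nearly the same ratio in each class, -0.59 (-0.63 to -0.54) in germ cells, -0.64 (-0.76 to -0.53) in granulosa cells, -0.64 (-0.72 to -0.57) in stroma and -0.44 (-0.73 to -0.15) in endothelium. Mdc1 was furthest apart in germ cells at -0.94 (-1.06 to -0.82), with -0.60, -0.64 and -0.72 elsewhere. Atm gave -0.69, -0.59, -0.84 and -0.57, Brca1 -0.63, -0.88, -0.67 and -0.68, and Brca2 -0.61, -0.40, -0.60 and -0.69, in the order germ, granulosa, stroma and endothelium. The endothelial intervals of Atm and Brca1 held 0.

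Atr was the least apart of the lower genes in somatic cells, at -0.12 (-0.33 to 0.08) in granulosa cells, -0.20 (-0.35 to -0.06) in stroma and -0.11 (-0.65 to 0.41) in endothelium, against -0.45 (-0.57 to -0.33) in germ cells. Trp53bp1 gave -0.27 (-0.47 to -0.06) in germ cells, -0.50 in both granulosa cells and stroma and -1.03 (-1.59 to -0.50) in endothelium. Nbn gave -0.22 (-0.39 to -0.04) in germ cells, which turned to 0.18 with equal weight per cell, and -0.47, -0.39 and -0.78 in the somatic classes.

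H2afx stood apart with 0.38 (0.26 to 0.49) in germ cells, 0.21 (0.09 to 0.32) in granulosa cells, 0.39 (0.34 to 0.44) in stroma and 0.08 (-0.12 to 0.28) in endothelium. In stroma the higher level labelled DEHP_MLT was present with cycling genes (2.94 against 2.44) and without (0.714 against 0.459). Red blood cell RNA moved with the libraries, but little in endothelium. The 3 of 3 erythroid markers (Hba-a1, Hbb-bs and Alas2) summed to 3.90 per 10000 UMIs in germ cells labelled MLT and 62.7 in those labelled DEHP_MLT. In the same order they summed to 12.3 and 108 in granulosa cells, 10.8 and 129 in stroma and 102 and 111 in endothelium. Barcodes with these markers, gated in no class, carried them at 3741 per 10000 UMIs in the library labelled DEHP_MLT and H2afx at 7.27. Immune markers (Ptprc, C1qa, C1qb, Lyz2, S100a8 and S100a9) moved the same way, from 0.333 to 1.41 in germ, 1.24 to 2.36 in granulosa, 0.352 to 3.00 in stroma and 0.333 to 0.791 in endothelial cells. Markers of the ovarian surface (Upk3b, Krt19 and Lgr5) stood at 0.431 and 0.893 in germ cells, 1.31 and 2.46 in granulosa cells, 0.436 and 0.520 in stroma and 0.501 and 0.397 in endothelium. Mural cell markers (Rgs5, Myh11 and Actg2) stood at 0.934 and 0.427 in stroma and at 0.0531 to 0.210 elsewhere. The part of these cells' RNA in the library differences was not tested.

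**Figure D5:**
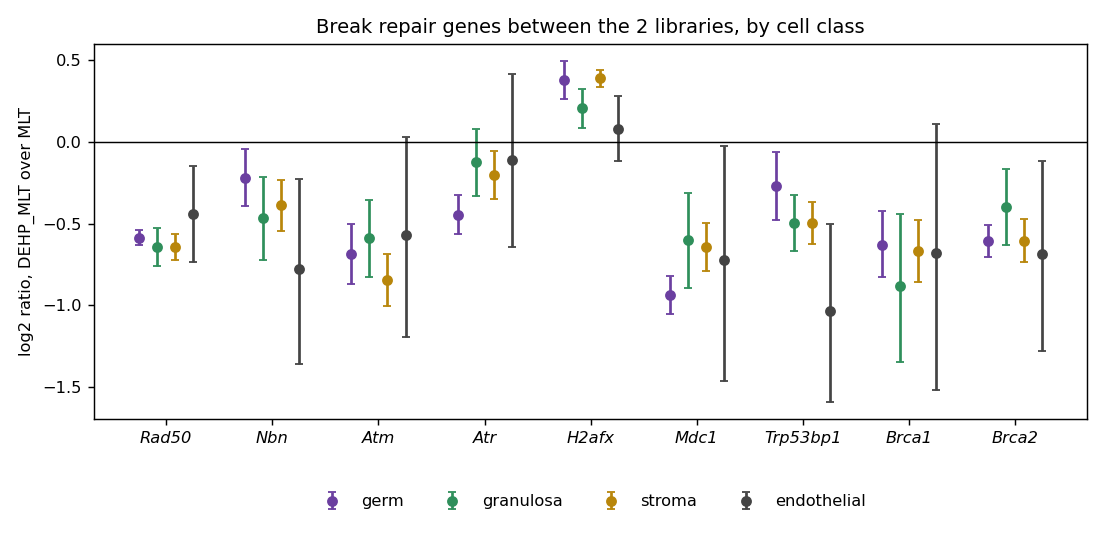
Log2 ratio of the level in the library labelled DEHP_MLT over that labelled MLT for each of the 9 genes in 4 cell classes, with exact binomial 95% intervals for counting error. All points except those of H2afx lie below 0, and 1 library per group allows no test of the treatment.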

How the data were processed

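Ovaries were profiled in 2 libraries of the 10x Genomics 3′ assay, per the labels' protocols. The authors deposited raw UMI counts per gene and barcode, whole numbers with no normalization. Per the submitters' processing notes they used Cell Ranger and Seurat 4.2.0 and the mm9 build; filters before deposit are not known. The members and gene lists were chosen with earlier results of these data known.

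Kept were barcodes with 500 or more genes and no more than 20% of UMIs from mitochondrial genes, 5199 labelled MLT and 4819 labelled DEHP_MLT, and classes were gated on marker levels per 10000 UMIs. Barcodes past 2 limits (169 and 46) or none (1054 and 1335) entered no class. Doublets were not called, so cells may include them. The labels do not number replicates. UMI counts summed per library and class (8 sums) were fitted in edgeR 4.0.16 (R 4.3.3; filterByExpr, TMM, library as a term, threshold 0.05 after adjustment); DESeq2 1.42.0 was an alternative. The fits were also run on simulated counts, drawn from a pooled profile with 200 changed genes. That setting is unlike the class contrast, where 12765 genes were called, so it gives no error rate for these data. Library ratios used genes with at least 20 UMIs in a class, the set behind their background shares. All members were reported; of the wider list, up to 4 called genes with the largest difference, the most abundant gene of each sub-list and, chosen after their values were seen, the exceptions. Likeness of profiles used a pseudocount of 0.1. Of the list, 2 genes, Bre and Fam175a, had no row by those symbols. A marker and a listed gene are not reported here. Precision is limited by UMIs, for whole classes from 58 to 15347 per member, class and library outside endothelium and from 20 to 492 in it. The cycling comparison rests on fewer. Granulosa cells without cycling genes labelled DEHP_MLT held 0 UMIs of Brca1 and 3 each of Mdc1 and Nbn. Python 3.11.15 with numpy 2.4.6, pandas 2.3.3, scipy 1.17.1 and matplotlib 3.10.9 was used.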

Additional observations from a re-analysis of the deposited data

Results flagged for a closer look

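In 5 instances the order of 2 cell classes differed between the libraries, and in each the difference was not tested. The level of Atm in granulosa minus stroma cells was -0.00747 per 10000 UMIs when labelled MLT but 0.027 when labelled DEHP_MLT. Nbn in granulosa minus endothelial cells was -0.0146 and 0.0247, and in stroma minus endothelial cells -0.00166 and 0.044. Trp53bp1 in germ minus endothelial cells was -0.0551 and 0.0585, and H2afx in germ minus granulosa cells -0.0336 and 0.0699. None of these 5 pairs passed the edgeR test over both libraries.

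Barcodes that entered no class held more H2afx than any gated class in the library labelled DEHP_MLT, at 3.11 per 10000 UMIs against 1.23 in the library labelled MLT.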

How the results depend on the processing

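Other gates (limits of 10% and 40%, the highest scaled score), the same UMI floor, DESeq2, library totals and no low-count filter kept the direction and call of all 9 members in germ against somatic cells, as did each library alone for the direction. With somatic cells of low cycling level, added after the data were seen, H2afx turned to 0.62. With cycling genes, 371 genes were called, 592 without the filter, 841 with at least 4 cycling genes and 2188 by summed level, where 1016 were higher, 1172 lower and the median of all genes -0.16. Mdc1 and Rad50 were called in these 3. Trp53bp1 turned to -0.27 by summed level and to -0.28 in stroma labelled DEHP_MLT alone. The cause was not tested. DESeq2 called 255 genes, with 3 members. The summed library ratio moved beyond counting error to -0.27 in granulosa cells at the 10% limit and -0.11 in stroma at the 40% limit, and with equal weight per cell to -0.52, -0.19 and -0.45 in granulosa, stroma and endothelium. Nbn in germ cells turned to 0.18 with equal weight. Of single levels 312 stayed within their interval and 48 moved. Equal weight per cell also ended the order of Rad50, Atr, Mdc1 and Nbn over zona bins labelled MLT. No paired analysis was possible because each group has 1 library and the labels number no replicates. Endothelial values rest on 99 to 146 cells per library and have the widest intervals.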

Other observations

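Among the barcodes in no class, those with red blood cell markers had a repair gene profile unlike the gated cells. This split was made after the data were seen. In the library labelled DEHP_MLT 569 such barcodes held H2afx at 7.27 per 10000 UMIs (7.06 to 7.49), above stroma at 2.31, and the 8 cycling genes at 39.2. Brca1 stood there at 0.251 (0.212 to 0.294) and Brca2 at 0.325 (0.281 to 0.373), but Rad50 only at 0.287 (0.246 to 0.333), Atm at 0.0379, Atr at 0.0396 and Nbn at 0.0808, each below every gated class of that library. In the library labelled MLT 35 such barcodes held H2afx at 0.219 and the cycling genes at 7.19, with 0 UMIs of Atm, Atr, Mdc1 and Nbn, for which the exact 95% interval reaches 0.0899 per 10000 UMIs. The share of red cell markers was higher there, 5448 against 3741 per 10000 UMIs. The remaining barcodes in no class, 1019 and 766, held H2afx at 1.25 and 1.81.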
